A study of Mus musculus with 6 samples.

Results

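The vacuolar proton pump (V-ATPase) is a rotary enzyme that uses ATP to drive protons into endosomes, lysosomes and phagosomes. Its V1 sector lies in the cytosol and splits ATP, its V0 sector sits in the membrane and conducts the protons, and several subunits exist as alternative products of related genes. Chloride-proton exchangers balance the charge of the pumped protons, and cation channels of the mucolipin and TPC families release calcium or sodium from the same compartments. In macrophages this machinery acidifies the lysosomes in which engulfed cells are broken down.

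The set holds 32 genes of 34745 listed in the deposited table, taken by gene symbol alone: 21 pump subunits, 2 accessory proteins, 4 chloride-proton exchangers with the partner protein Ostm1, and 4 cation channels. Each symbol matched 1 row. Of these, 28 had enough counts to be tested, among 12546 genes tested in all. Atp6v0a4, Atp6v0e2, Atp6v1b1 and Atp6v1c2 were not tested.

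The libraries come from messenger RNA of cardiac macrophages of mice labelled LGMN-KO, in which legumain is knocked out, a lysosomal endopeptidase that cuts after asparagine, and of mice labelled WT. All mice were C57BL/6 and 8 weeks old, and the series describes the cells as taken after myocardial infarction, while the protocol names both ligation of the left anterior descending artery and sham surgery without assigning either to an animal. Lgmn KO has replicates 1, 2 and 4 and WT replicates 1, 2 and 3, and values below follow that order. The sources used here do not state how the Lgmn allele was made, in which cells it is lost, or whether animals were pooled. The p-values therefore measure the spread between these libraries alone, and that spread may be technical.

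Each library held 19546253 to 24086976 counts, and mitochondrial genes took 1.61% to 2.11% of them. Lgmn itself was at 78.7, 88.5 and 83.5 CPM in the Lgmn KO libraries and 2205, 2692 and 2277 in the WT libraries (CPM, a library-size scale adjusted by TMM factors), in the direction the labels give. The 8 macrophage markers summed to 5488 to 6374 CPM in Lgmn KO and 5620 to 7123 CPM in WT. Of these, 6 of 8 had a lower mean in Lgmn KO, while Cd68, which alone averaged 3597 CPM in Lgmn KO against 3171 in WT, was not among them. The edgeR test called 0 of the 8, whereas DESeq2 and limma-voom with sample weights each called 2 lower, Csf1r (log2 fold change -0.74 and adjusted p = 0.0916 by edgeR) and Cd14 (-0.99 and 0.0927). In both genotypes the markers of other cell types summed to far less than the macrophage markers. All 9 T and NK cell markers had a lower mean in Lgmn KO, with sums of at most 0.460 CPM there and at least 2.82 CPM in WT. Only 1 of the 9, Cd3g, had enough counts for the edgeR test (adjusted p = 0.0555), while DESeq2, which tested more genes, called 6 lower and limma-voom called Cd3g. The ranges for Lgmn KO and then WT were 2.66 to 5.00 and 4.92 to 15.4 CPM for 6 dendritic cell markers (Siglech at 0, Zbtb46 called lower by edgeR), 1.94 to 2.73 and 1.996 to 5.38 CPM for 4 B cell markers, and 6.07 to 7.26 and 4.07 to 4.82 CPM for 7 neutrophil markers. They were 24.1 to 42.0 and 36.5 to 42.2 CPM for 6 endothelial markers (Flt1 called lower by edgeR), 12.9 to 28.3 and 27.8 to 62.3 CPM for 5 fibroblast markers, and 2.37 to 3.63 and 2.71 to 3.602 CPM for 6 cardiomyocyte markers. In these other lists DESeq2 called 1 dendritic, 2 endothelial and 1 fibroblast marker lower and 1 neutrophil marker higher. The part of these cells, and of the macrophage markers that were lower, in the results was not tested.

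Transcripts of the pump lay slightly above WT in the Lgmn KO macrophages, across both sectors (median log2 fold change 0.28 for V1 and 0.19 for V0), and no single member passed the test over all genes. By edgeR's quasi-likelihood test, adjusted by Benjamini-Hochberg over all genes, 0 of the 28 tested members were called at an adjusted p below 0.05, against 0.789% of all genes tested. An unadjusted p below 0.05 was found for 11 members, every one of them higher in Lgmn KO, where 6.9% of all genes tested were that low and higher and 10.6% that low and lower. The log2 fold change (Lgmn KO over WT, as throughout) was above 0 in 26 of 28, with a median of 0.20, while 49.6% of all genes tested were above 0 with a median of -0.002. Among the 3691 tested genes with a mean of at least 50 CPM, 55.0% were above 0 with a median of 0.02. Of these 3691, 404 had an unadjusted p below 0.05 and were higher, and 366 were that low and lower. DESeq2's Wald test called 3 members, Atp6v0d2, Atp6v1g1 and Atp6v1h (1.98% of all genes with an adjusted p were called higher by it), and limma-voom with sample weights called Atp6v1g1 and Atp6v1h (0.949% of all genes tested). In RNA from a whole sort, more transcript per cell and more cells of a kind that holds much of it cannot be told apart.

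All 17 tested pump subunits had a log2 fold change above 0, with a median of 0.22, and for every one of them the highest of the 6 libraries was a Lgmn KO library and the lowest a WT library. Over all genes tested 34.8% showed that order, as did 1523 of the 3691 with a mean of at least 50 CPM. The groups did not overlap for 10 of the 17, and for 14 of the 28 tested members, always with Lgmn KO above. Over all genes tested, 10.7% did not overlap with Lgmn KO above and 13.0% with Lgmn KO below. Of the 3691 with a mean of at least 50 CPM, these were 569 and 458. Among the tested members WT replicate 2 was the highest WT library for 2, WT replicate 1 for 14 and WT replicate 3 for 12. The plot of library positions shows the same ordering for the subunits as a set.

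**Figure D1:**
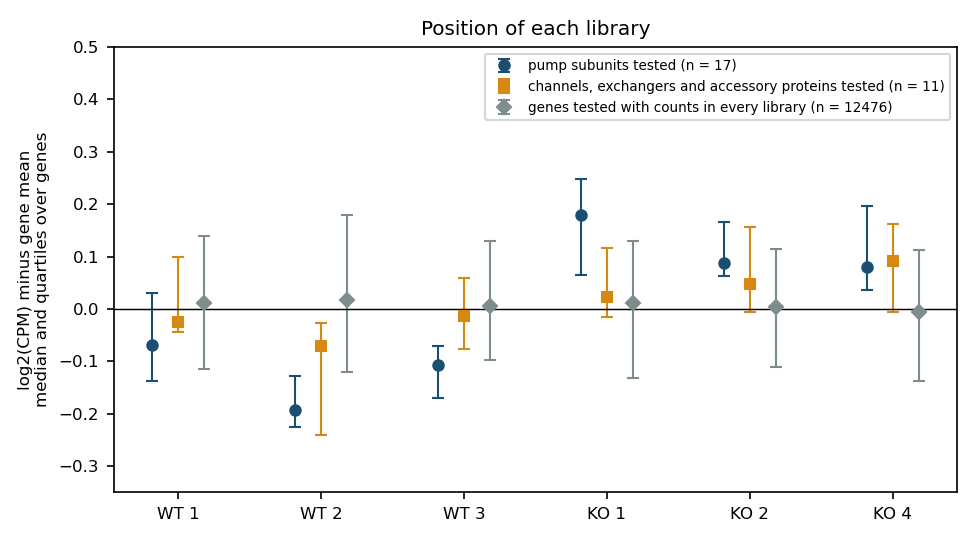
Position of each library as log2 CPM minus the gene's mean over the 6 libraries (y axis), with the median and quartiles over 17 tested pump subunits, the 11 other tested members and 12476 tested genes with counts in every library. The subunits' medians are 0.18, 0.09 and 0.08 in the knockout libraries and -0.07, -0.19 and -0.11 in the WT libraries, in the order of their numbers, while those of all genes stay within 0.02 of 0.

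**Figure D2:**
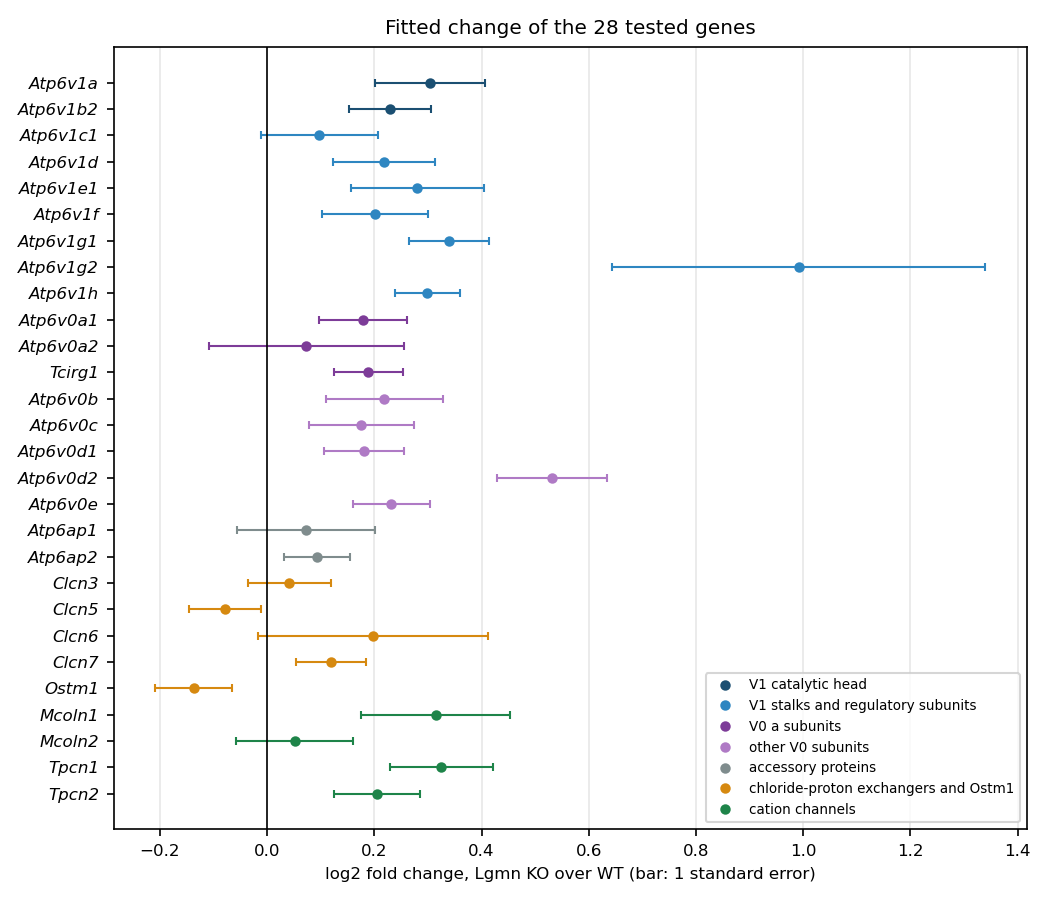
Fitted log2 fold change, positive where Lgmn KO is higher (x axis), with 1 standard error for each of the 28 tested members, coloured by role. Clcn5 and Ostm1 lie below 0, and Atp6v1g2, the least abundant, has the widest error.

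In the V1 sector, Atp6v1a and Atp6v1b2 encode the A and B subunits that alternate in the ATP-splitting head. Atp6v1a was at 1446, 1411 and 1646 CPM in the Lgmn KO libraries and 1339, 1069 and 1240 in the WT libraries. Lgmn KO replicate 4 was highest and WT replicate 2 lowest, with no overlap, and the fit gave a log2 fold change of 0.30 (standard error 0.10, adjusted p = 0.193). Atp6v1b2 was at 1442, 1268 and 1249 CPM in the Lgmn KO libraries and 1093, 1126 and 1158 in the WT libraries, again without overlap, with a log2 fold change of 0.23 (standard error 0.08, adjusted p = 0.187). Atp6v1b1, the B subunit of kidney and inner ear, had 0 counts in all 6 libraries. Given 3 counts as the floor, it could still hold up to 0.125 to 0.153 CPM, which covers counting error only.

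Atp6v1g1 and Atp6v1h had the smallest p of the V1 sector. Atp6v1h encodes the regulatory subunit that couples V1 to V0 and was at 199.8, 189.6 and 193 CPM in the Lgmn KO libraries and 159, 154 and 159.9 in the WT libraries. The 3 libraries of each genotype lay close together and apart from the other group, at 194 ± 5.27 CPM on average in Lgmn KO against 158 ± 3.17 in WT (SD over 3 libraries), which is a log2 fold change of 0.30 (standard error 0.06, adjusted p = 0.0727). Atp6v1g1, the ubiquitous form of the G subunit in the peripheral stalk, was at 360.5, 318 and 331 CPM in the Lgmn KO libraries and 273, 273 and 251 in the WT libraries. All Lgmn KO libraries were above all WT libraries, with a log2 fold change of 0.34, a standard error of 0.07 and an adjusted p of 0.0841. DESeq2 gave an adjusted p of 0.00361 for Atp6v1h and 0.00459 for Atp6v1g1, and limma-voom with sample weights 0.0424 and 0.0439, so their call depends on the method. Over all alternatives their adjusted p ran from 0.00361 to 0.414 and from 0.00459 to 0.450.

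Atp6v1g2, the form of the G subunit best known from neurons, was scarce, with 44, 34 and 73 counts in the knockouts against 18, 30 and 34 in WT. Its fitted log2 fold change of 0.99 was the highest of all members, but the standard error was 0.35 (adjusted p = 0.205), and Lgmn KO replicate 4 alone held 73 of those counts. Without that library the log2 fold change was 0.66. Exons of Atp6v1g2 overlap exons of Nfkbil1 on the opposite strand, and no source used here says whether the counting used strand. It is therefore not known to which gene of this pair reads in the overlapping exons were counted. Nfkbil1 was at 13.3, 13.2 and 14.1 CPM in the Lgmn KO libraries and 13.0, 11.4 and 11.3 in the WT libraries, with a log2 fold change of 0.19. Its groups did not overlap either, with Lgmn KO above.

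The remaining tested V1 subunits were abundant, and their groups overlapped. Atp6v1c1, whose product links the head to the membrane sector and is released when the pump disassembles, was at 622, 705 and 772 CPM in the Lgmn KO libraries and 709.8, 576 and 676 in the WT libraries. WT replicate 1 lay above 2 of the Lgmn KO libraries, and the log2 fold change was 0.10 (adjusted p = 0.708). Atp6v1d, part of the central rotor, was at 239.6, 225 and 222 CPM in the Lgmn KO libraries and 224, 179 and 188 in the WT libraries. Atp6v1e1, a peripheral stalk subunit, was at 375, 413 and 435 CPM in the Lgmn KO libraries and 376, 357 and 274 in the WT libraries. Both overlapped only through WT replicate 1, and their log2 fold changes were 0.22 (adjusted p = 0.294) and 0.28 (adjusted p = 0.303). That of Atp6v1e1 was 0.15 without WT replicate 3, its lowest library, and 0.10 with the replicate block. Atp6v1f, also of the rotor, was at 179, 158 and 139 CPM in the Lgmn KO libraries and 143, 133 and 137 in the WT libraries, with a log2 fold change of 0.20 (adjusted p = 0.348). Atp6v1c2, the C subunit of lung and kidney epithelia, had 0 counts in every library.

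In the V0 sector Atp6v0d2, a d subunit found in osteoclasts and in some macrophages, showed the largest difference of the abundant members. It was at 1380, 1475 and 1347 CPM in the Lgmn KO libraries and 879.8, 908 and 1120 in the WT libraries. The Lgmn KO libraries lay between 1347 and 1475 CPM and the WT libraries between 880 and 1120 CPM, with WT replicate 3 nearest to Lgmn KO. It stood at 1401 ± 66.2 CPM on average in Lgmn KO against 969 ± 131 in WT (SD over 3 libraries), and the fit gave a log2 fold change of 0.53 (standard error 0.10, adjusted p = 0.0682), or 44.5% more transcript. DESeq2 gave an adjusted p of 0.000395, and the range over all alternatives was 0.000395 to 0.203. In the authors' deposited table Atp6v0d2 was the 1 member with a q-value below 0.05, at 0.00432 with a log2 fold change of 0.52, where 1.01% of all genes with a q-value were that low and higher in Lgmn KO. The gene lies at chr4:19876841-19922605 on the minus strand in GRCm38 and is protein coding.

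Atp6v0d1, the d subunit of most tissues, was at 419, 402 and 406 CPM in the Lgmn KO libraries and 389, 333 and 359.9 in the WT libraries, with groups that did not overlap and a log2 fold change of 0.18 (standard error 0.07, adjusted p = 0.269). FPKM, which divides counts by gene length, allows both genes to be set beside each other as far as the length used for each gene holds. By deposited FPKM Atp6v0d2 was at 501, 539 and 486 FPKM in the Lgmn KO libraries and 327, 331 and 407 in the WT libraries. It had the highest mean of all members in both genotypes, though in WT replicate 1 Atp6v1c1 was above it at 345 FPKM. Its share of the summed d subunit FPKM was 71.9%, 74.0% and 72.1% in Lgmn KO and 63.7%, 67.9% and 70.7% in WT. The groups did not overlap, and the means were 72.7% ± 1.17 and 67.5% ± 3.51 (SD, n = 3 each). A 2-sided exact permutation test gave p = 0.1, the smallest that 3 against 3 allows, and 0.25 after adjustment over 5 such shares. The difference of 5.19 percentage points was 3.33 without WT replicate 1.

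**Figure D3:**
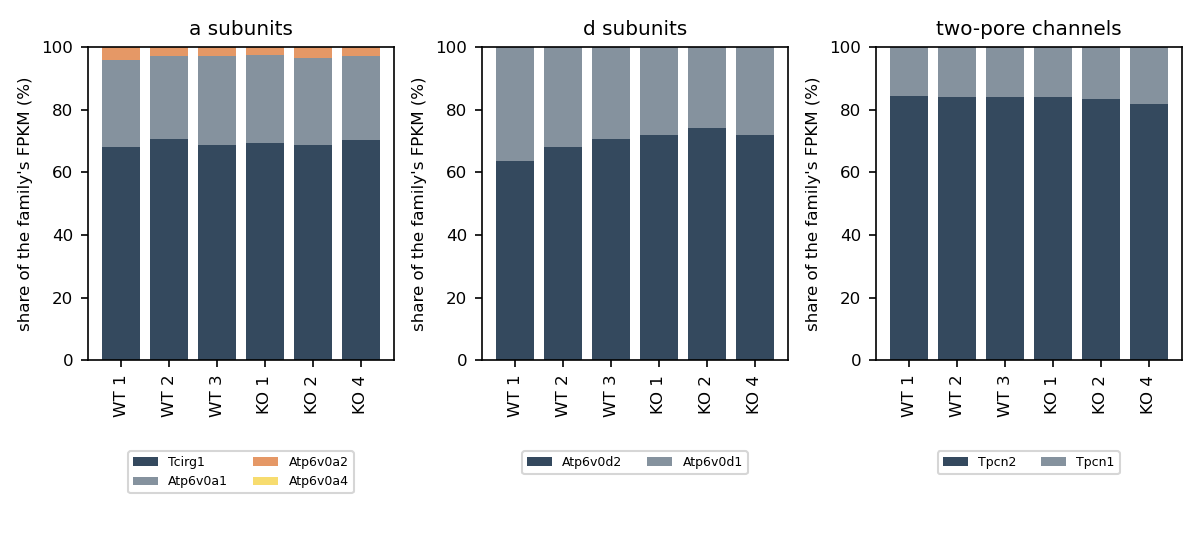
Share of the deposited FPKM (y axis, percent) held by each gene of a family in each library, for the a subunits, the d subunits and the TPC channels. Atp6v0d2 holds 63.7% to 70.7% of the d subunit FPKM in WT and 71.9% to 74.0% in Lgmn KO, and Tcirg1 holds 68.1% to 70.6% of the a subunit FPKM in all 6 libraries.

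The a subunits carry the proton half-channels and direct the pump to its compartment. Tcirg1 encodes the a3 form, which brings the pump to lysosomes and to the osteoclast border, and was at 973, 1068 and 1005 CPM in the Lgmn KO libraries and 883, 883 and 905 in the WT libraries. The groups did not overlap, with a log2 fold change of 0.19 (standard error 0.06, adjusted p = 0.193). Atp6v0a1 was at 524, 576 and 502 CPM in the Lgmn KO libraries and 478, 438 and 499 in the WT libraries, with WT replicate 3 just under the lowest Lgmn KO library and a log2 fold change of 0.18 (adjusted p = 0.315). Atp6v0a2, the Golgi and endosomal form, was at 52.6, 76.0 and 61.4 CPM in the Lgmn KO libraries and 75.6, 52.9 and 52.1 in the WT libraries, so WT replicate 1 and Lgmn KO replicate 2 were alike and the groups overlapped (log2 fold change 0.07, standard error 0.18). Atp6v0a4, the kidney form, had 0, 0 and 0 counts in the knockouts against 4, 0 and 0 in WT. Tcirg1 held 69.4% ± 0.924 of the a subunit FPKM in Lgmn KO and 69.1% ± 1.31 in WT (SD, n = 3 each; 2-sided exact permutation p = 0.8), and Atp6v0a1 27.5% ± 0.875 and 27.6% ± 1.08 (exact permutation p = 1). The difference in Tcirg1 share was 0.316 percentage points.

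The tested rotor ring and small subunits also had their highest library in Lgmn KO and their lowest in WT. Atp6v0c, the proteolipid that makes up most of the ring, was at 917, 802 and 949 CPM in the Lgmn KO libraries and 731, 753 and 877 in the WT libraries. WT replicate 3 lay above Lgmn KO replicate 2, and the log2 fold change was 0.18 (adjusted p = 0.411). Atp6v0b, the second proteolipid, was at 317, 269 and 250.5 CPM in the Lgmn KO libraries and 265, 221 and 233 in the WT libraries, with overlap through WT replicate 1 and a log2 fold change of 0.22 (adjusted p = 0.359). Atp6v0e, a small membrane subunit, was at 301, 264 and 268 CPM in the Lgmn KO libraries and 234, 236 and 239 in the WT libraries. The WT libraries lay close together and all below Lgmn KO, with a log2 fold change of 0.23 (standard error 0.07, adjusted p = 0.16). Its paralog Atp6v0e2 had 6, 3 and 3 counts in the knockouts against 10, 2 and 4 in WT, which is 0.0491% to 0.260% of the pair's FPKM, and the difference in that share was within the spread (exact permutation p = 0.8).

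Summed per length over the sectors, the 11 V1 genes reached 1415, 1370 and 1404 FPKM in Lgmn KO and 1298, 1136 and 1181 FPKM in WT. The 10 V0 genes reached 1236, 1246 and 1198 FPKM in Lgmn KO and 979, 933 and 1060 FPKM in WT. Both sums were higher in every Lgmn KO library than in any WT library. Much of the V0 difference came from Atp6v0d2, which averaged 508 FPKM in Lgmn KO and 355 in WT. The V0 sums averaged 1226 and 991 FPKM. Levels of single subunits spanned a wide range: by mean FPKM in WT the order ran from Atp6v0d2 at 355 through Atp6v1c1 at 313 and Atp6v1g1 at 235 to Atp6v1h at 13.6, Atp6v0a2 at 5.84 and, last of those tested, Atp6v1g2 at 0.195. Atp6v0c, Atp6v1b2 and Atp6v0d1 were neighbours in that order at 173, 172 and 170.2 FPKM and did not differ beyond their spread. The order rests on the gene lengths used for FPKM and differs by CPM, which is not divided by length. By mean CPM in WT, Atp6v1a at 1216 stood above Atp6v0d2 at 969. Atp6v1h was at 158 CPM there and Atp6v1d at 197, against 13.6 and 141 FPKM.

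**Figure D4:**
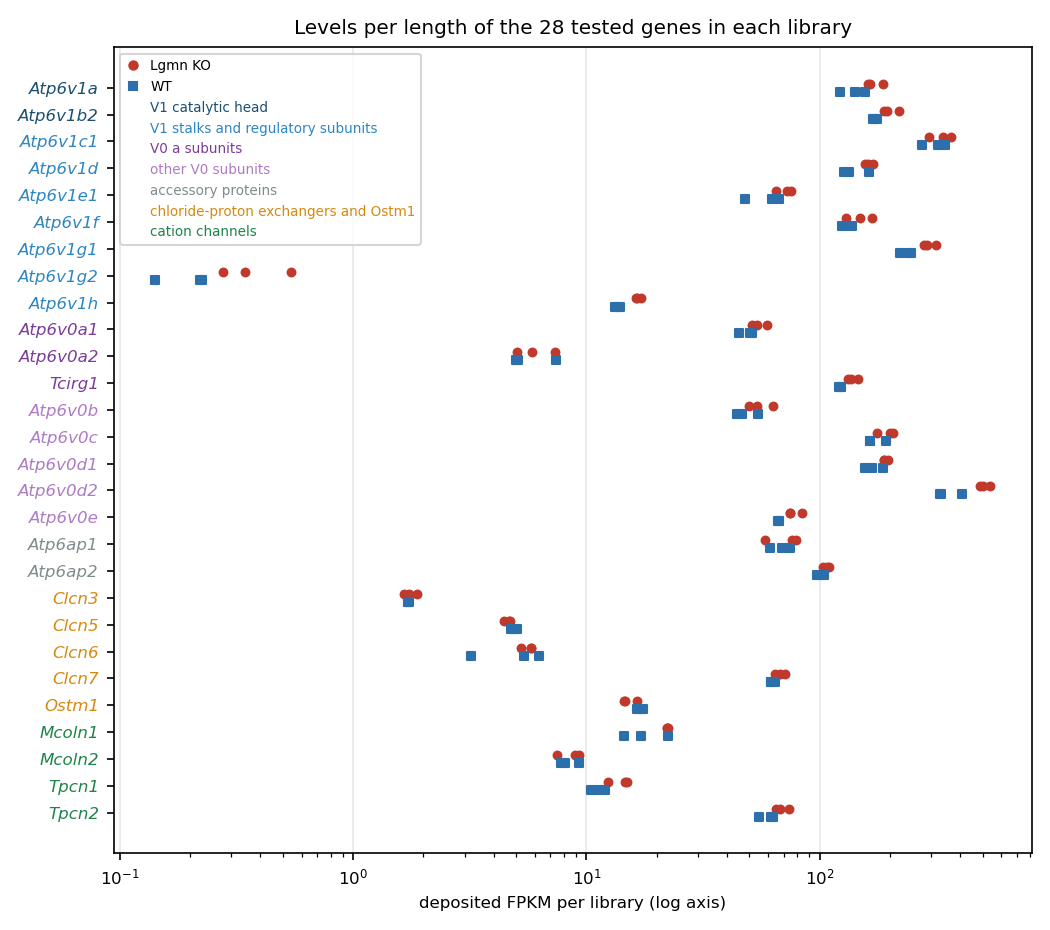
Deposited FPKM in each library (x axis, log scale) for the 28 tested members, with Lgmn KO as circles and WT as squares and gene names coloured by role. Atp6v0d2, at 327 to 539 FPKM, is highest in 5 of the 6 libraries and second to Atp6v1c1 in WT replicate 1, and Atp6v1g2 is lowest, under 1 FPKM in every library.

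No accessory protein, chloride exchanger or Ostm1 had an unadjusted p below 0.05. Atp6ap1, which helps to assemble V0, was at 526, 501 and 389.7 CPM in the Lgmn KO libraries and 445, 404 and 498 in the WT libraries, and the groups overlapped (log2 fold change 0.07, standard error 0.13). Atp6ap2, the prorenin receptor and a further assembly partner, was at 302, 285 and 300.4 CPM in the Lgmn KO libraries and 283, 279.5 and 269.9 in the WT libraries. Its groups did not overlap, though the log2 fold change was 0.09 (adjusted p = 0.497). Clcn7, the main chloride-proton exchanger of lysosomes, was at 514, 536 and 572 CPM in the Lgmn KO libraries and 504, 494 and 496 in the WT libraries. The WT libraries lay close together, just below Lgmn KO, with a log2 fold change of 0.12 (adjusted p = 0.405).

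Ostm1, the beta subunit that Clcn7 needs for its stability, was 1 of 2 members with a log2 fold change below 0. It was at 123, 139 and 123 CPM in the Lgmn KO libraries and 143, 138 and 141 in the WT libraries. Lgmn KO replicate 2 lay just above WT replicate 2, so the groups overlapped, and the log2 fold change was -0.14 (standard error 0.07, adjusted p = 0.38). Clcn5, an exchanger of endosomes, was the other member below 0, at 61.3, 61.3 and 58.6 CPM in the Lgmn KO libraries and 61.0, 66.3 and 64.1 in the WT libraries (log2 fold change -0.08, adjusted p = 0.606). Clcn3, also endosomal, was at 42.4, 44.3 and 48.6 CPM in the Lgmn KO libraries and 43.0, 43.9 and 44.6 in the WT libraries, and its log2 fold change was 0.04. Clcn6, of late endosomes, was at 39.5, 43.4 and 43.9 CPM in the Lgmn KO libraries and 45.9, 24.0 and 40.7 in the WT libraries, where WT replicate 2 stood far below the other 5 libraries. The log2 fold change was 0.20 (standard error 0.21) and -0.03 without that library.

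Among the cation channels, the groups were apart for Tpcn1 and Tpcn2 and overlapped for Mcoln1 and Mcoln2. Tpcn1 and Tpcn2 encode the TPC channels, which respond to the second messenger NAADP and to a lysosomal phosphoinositide. Tpcn1 was at 113, 132 and 137 CPM in the Lgmn KO libraries and 102, 94.5 and 109 in the WT libraries, without overlap, with a log2 fold change of 0.32 (standard error 0.10, adjusted p = 0.15). Tpcn2 was at 189.9, 214 and 199 CPM in the Lgmn KO libraries and 177, 161 and 185 in the WT libraries, also without overlap, with one of 0.21 (standard error 0.08, adjusted p = 0.249). By FPKM Tpcn1 held 16.9% ± 1.11 of the pair in Lgmn KO and 15.8% ± 0.177 in WT (SD, n = 3 each; 2-sided exact permutation p = 0.1, adjusted 0.25), so Tpcn2 predominated in both. The difference of 1.12 percentage points was 0.502 without Lgmn KO replicate 4. The size of the Tpcn1 share rests on the gene lengths used for FPKM. By CPM, which is not divided by length, Tpcn1 held 37.2%, 38.2% and 40.8% in Lgmn KO and 36.5%, 37.0% and 37.1% in WT.

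Mcoln1 encodes TRPML1, the calcium channel of lysosomes whose opening activates the factor TFEB. It was at 118, 116 and 119.7 CPM in the Lgmn KO libraries and 116, 77.0 and 91.2 in the WT libraries. The Lgmn KO libraries lay close together, WT replicate 1 lay among them, and WT replicates 2 and 3 lay below. The log2 fold change was 0.31 (standard error 0.14, adjusted p = 0.303), and without WT replicate 1 it was 0.49 with an adjusted p of 0.0322, but without WT replicate 2 it was 0.18. Mcoln2, a relative found in lymphoid and myeloid cells, was at 46.5, 37.2 and 44.6 CPM in the Lgmn KO libraries and 45.1, 40.0 and 38.7 in the WT libraries (log2 fold change 0.05).

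**Figure D5:**
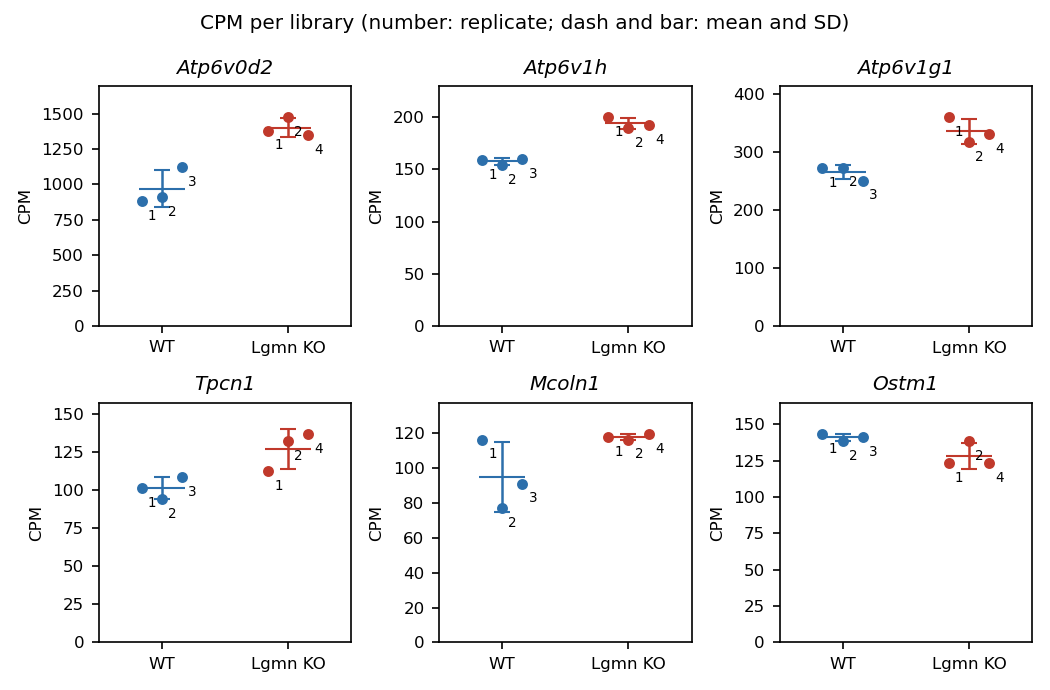
CPM in each library (y axis from 0) for Atp6v0d2, Atp6v1h, Atp6v1g1, Tpcn1, Mcoln1 and Ostm1, with replicate numbers, the group mean as a dash and the SD as a bar. The groups are apart for Atp6v0d2, Atp6v1h, Atp6v1g1 and Tpcn1, while WT replicate 1 reaches the Lgmn KO level for Mcoln1 and Lgmn KO replicate 2 that of WT for Ostm1.

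Promoter sequences were read because many lysosomal genes carry E-boxes of the type bound by TFEB and its relatives. RefSeq promoters (GRCm38.p6) were matched by symbol for 25 of the 32 members, and the 250 bases before each start were searched for CACGTG and for TCACGTGA, which contains it. Both motifs read the same on either strand. CACGTG was found in 6 of 25 members (24.0%) and in 6.86% of the 27025 genes with a promoter there. Among tested genes it was in 6 of 21 members (28.6%) and 10.2% of 9264 genes. TCACGTGA was found in 3 of 25 members (12.0%), against 0.907% of all genes. Among tested genes it was in 3 of 21 members (14.3%) and 1.81% of 9264 genes. No entry was matched for Atp6v0a2, Atp6v0d2, Atp6v1b2, Atp6v1c1, Atp6v1g1, Atp6v1h and Tpcn1.

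The 6 members with a match follow, 5′ to 3′ on the gene's strand, with the motif in capitals, so that the shared core can be compared. Atp6v1a is at chr16:44139374-44139401 (minus), Clcn6 at chr4:148038822-148038849 (minus), Mcoln1 at chr8:3500463-3500490 (plus), Atp6v0b at chr4:117887331-117887358 (minus), Clcn7 at chr17:25133365-25133390 (plus) and Mcoln2 at chr3:146150091-146150118 (plus). The CACGTG core began 131, 25, 45, 18, 15 and 72 bases before the RefSeq start, in that order. By the gene positions in GENCODE M21, Atp6v1a, Mcoln1 and Mcoln2 start farther upstream, and their printed stretches lie wholly inside the gene.
Atp6v1a: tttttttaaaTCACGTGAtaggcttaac
Clcn6: ccggggccagTCACGTGAggcgcggatc
Mcoln1: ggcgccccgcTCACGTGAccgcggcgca
Atp6v0b: ggtcggcgcatCACGTGcgccggtcagg
Clcn7: ccgtcgtcagtCACGTGggcaccgat
Mcoln2: ccctgagctcaCACGTGgaccccattct

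Atp6v0b, Clcn6 and Mcoln1 each held a further CACGTG elsewhere in the 250 bases searched, outside the stretch printed. The 6 genes had log2 fold changes from 0.05 for Mcoln2 to 0.31 for Mcoln1. A match describes letters only, and its relation to the change between genotypes was not tested.

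Genes of the same pathway outside the set were read from 7 lists with 68 genes found, of which 60 were tested. The edgeR test called 1 higher and 0 lower, DESeq2 called 7 and limma-voom with sample weights 3. Of all 12546 genes tested, edgeR called 39 higher and 60 lower, DESeq2 called 749 and limma-voom 340. The median log2 fold change of the listed genes was 0.07, with 39 of 60 (65.0%) above 0 against 49.6% of all genes tested. The gene called by edgeR was Ctsk, a collagen-degrading cathepsin of osteoclasts, at 285, 287 and 259 CPM in the Lgmn KO libraries and 169, 157 and 164 in the WT libraries (log2 fold change 0.76, adjusted p = 0.0126). It lost its call without Lgmn KO replicate 2 and without WT replicate 3, and in both fits to replicates 1 and 2 alone, with log2 fold changes of 0.73 to 0.81 in those 4 fits. Of 9 tested genes of osteoclast acid secretion and fusion, 4 were above 0 with a median of -0.02. DESeq2 called Ctsk and Itgb3 higher and Acp5 lower there, and limma-voom Ctsk higher and Acp5 lower. In that list Itgb3, an integrin subunit, was at 95.5 ± 16.4 CPM on average in Lgmn KO against 54.6 ± 15.7 in WT (SD over 3 libraries) with an edgeR adjusted p of 0.132, and Acp5, the tartrate-resistant acid phosphatase, at 44.3 ± 2.85 CPM on average in Lgmn KO against 57.6 ± 4.00 in WT (SD over 3 libraries) with one of 0.0862.

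None of the other lists had a called member by the edgeR quasi-likelihood test. Among them 6 had an unadjusted p below 0.05 and were higher, and 3 were lower. Over all genes tested, 6.9% were that low and higher and 10.6% that low and lower. In these lists DESeq2 called Dmxl2, Lamtor1 and Slc11a2 higher and Slc9a9 lower, and limma-voom with sample weights called Slc11a2. Assembly factors and minor subunits had a median of 0.01 over 8 tested genes, of which 4 were above 0. Dmxl2, part of the complex that reassembles V1 with V0, was at 246, 215 and 226 CPM in the Lgmn KO libraries and 189, 143 and 184 in the WT libraries (log2 fold change 0.41, adjusted p = 0.138). In the same list Rogdi showed a log2 fold change of -0.36 (adjusted p = 0.335), with all Lgmn KO libraries below all WT libraries. Ccdc115 showed one of -0.23 (adjusted p = 0.369), with overlap. For 4 tested TLDc proteins, which bind the pump, the median was 0.12, and Oxr1 showed a log2 fold change of -0.33 (adjusted p = 0.164). Ragulator and Rag GTPases, which dock on the pump to sense amino acids, had a median of 0.06 over 10 genes. Lamtor1, the Ragulator anchor, was at 269.6, 249 and 242 CPM in the Lgmn KO libraries and 219, 200.2 and 209 in the WT libraries (log2 fold change 0.28, adjusted p = 0.113), and Rragc showed a log2 fold change of 0.23 (adjusted p = 0.165).

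Further endolysosomal channels and exchangers had a median of 0.05 over 10 tested genes. Mcoln3, the third mucolipin, was at 67.9, 80.1 and 83.7 CPM in the Lgmn KO libraries and 70.7, 41.8 and 65.4 in the WT libraries (log2 fold change 0.38), and Slc9a9, a sodium-proton exchanger of endosomes, showed a log2 fold change of -0.93 (adjusted p = 0.176). Metal ion and solute transporters had a median of 0.08 over 12 tested genes. Slc11a2, an iron transporter driven by protons, was at 123, 146 and 139 CPM in the Lgmn KO libraries and 107, 87.4 and 103 in the WT libraries (log2 fold change 0.46, adjusted p = 0.0841). Slc11a1, its phagosomal relative, showed a log2 fold change of 0.17 and Slc17a5, the sialic acid exporter, one of -0.61 (adjusted p = 0.23 and 0.198). The 7 regulators of mucolipin and TPC channels, such as the lipid kinase gene Pikfyve (log2 fold change 0.11), had a median of 0.08 and none had an unadjusted p below 0.05.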

How the data were processed

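Counts and FPKM for 6 libraries were taken from 1 deposited table, each column matched to a sample by its title. Per the file headers the authors deposited a count per gene and an FPKM value, and their own log2 fold change, p-value and q-value, which are quoted only as theirs. The submitters' processing notes name HISAT2, TopHat2 2.0.9 and TopHat with no role and the human build hg38, but 98.6% of the gene IDs are in mouse GENCODE M21 (GRCm38), so positions are read as GRCm38. The counter and its strand setting are not stated there. No pair of libraries within a group agreed within sampling noise (chi-square per degree of freedom 14.0 to 42.7), so none was counted as a repeat.

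Genes were filtered with filterByExpr, scaled by TMM factors and tested across all genes with edgeR 4.0.16 (quasi-likelihood) in R 4.3.3, comparing the genotypes without covariates, with Benjamini-Hochberg adjustment and a threshold of 0.05. Shares of FPKM were tested by exact permutation. Alternatives were DESeq2 1.42.0, limma 3.58.1 (voom with sample weights), RLE and upper-quartile factors, no filter, a threshold of 0.1, each library left out, and a replicate block. By rule, values in every library are given for members with an unadjusted p below 0.05 and for the 2 of highest FPKM in each role. Those of the remaining members are given as well, outside that rule. From the other lists up to 4 genes of smallest p or highest mean are named. Members and lists were chosen with earlier results of these data known.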

Additional observations from a re-analysis of the deposited data

How the results depend on the processing

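The number of members called higher was 0 in the edgeR fit, 1 without a filter on low counts (Atp6v0d2), 3 with DESeq2, 2 with limma-voom and sample weights, 3 at a threshold of 0.1, and 0 to 1 over the fits without 1 library, where the 1 was Mcoln1 without WT replicate 1. No alternative called a member lower. Over all genes 99 were called, 318 without a filter, 780 with DESeq2, 340 with limma-voom, 503 at a threshold of 0.1 and 6 (without Lgmn KO replicate 2) to 639 (without WT replicate 1) over the fits without 1 library. Between 24 and 26 of the 28 tested members were above 0 in each alternative, and 16 or 17 of the 17 pump subunits. Of 364 combinations of a member and an alternative, 12 changed sign, all in 5 members. Mcoln2 was at -0.0040 to 0.145 over the fits without 1 library, lowest without Lgmn KO replicate 1, at -0.0303 with the replicate block and at -0.0238 in the same 4 libraries with no block. Atp6v0a2 was at -0.0765 (without Lgmn KO replicate 2) to 0.270 (without WT replicate 1), and also below 0 without WT replicate 2 or 3, at -0.0118 and -0.0207. Atp6ap1 was at -0.0034 (without Lgmn KO replicate 1) to 0.189, and at -0.0050 with limma-voom. Clcn3 was at -0.0185 (without Lgmn KO replicate 4) to 0.0929, at -0.0018 with the replicate block and at -0.0017 with no block. Clcn6 was at -0.0337 (without WT replicate 2) to 0.384. Other small differences also moved by over 1.5 times: Atp6v0b was at 0.13 and Atp6v1f at 0.115 without Lgmn KO replicate 1, Clcn7 at 0.07 without Lgmn KO replicate 4, Atp6v1c1 at 0.01 and Mcoln3 at 0.18 without WT replicate 2, Pikfyve at 0.01 without WT replicate 1, and Atp6v0c at 0.10 and Slc17a5 at -0.33 with limma-voom. The replicate block could use replicates 1 and 2 alone, with 1 residual degree of freedom, and called 33 genes against 4 with no block, none of them members. The labels do not say that a number marks a shared animal or batch, and the correlation of same-numbered deviations was 0.126. With 2 libraries per group, replicates 1 and 2 give the same value, so this is 1 comparison. The cause of these differences was not tested.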
